A study of Homo sapiens with 6 samples.

Results

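The sensors that trigger the unfolded protein response and the integrated stress response were followed at the RNA level in OVCAR5 cells treated with SpiD7. The 10 genes were the IRE1α gene ERN1 and its substrate XBP1, the sensor genes ATF6 and ATF6B with the proteases MBTPS1 and MBTPS2 that release them, and the eIF2α kinases EIF2AK1 to EIF2AK4. They were taken by symbol from a table of 29982 symbols, and all 10 were among the 13287 genes with a mean of at least 1 FPKM (fragments per kilobase of transcript, relative to the reads mapped in the library) over the 6 libraries.

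Unfolded protein in the endoplasmic reticulum (ER) activates IRE1α, PERK and ATF6, which sit in the ER membrane and bind the chaperone BiP at rest. IRE1α cuts XBP1 mRNA so that it encodes an active transcription factor, PERK phosphorylates eIF2α and so slows translation, and ATF6 travels to the Golgi, where the site-1 and site-2 proteases free its transcription factor domain. PERK shares eIF2α with HRI, PKR and GCN2, kinases that sense heme shortage or mitochondrial stress, double-stranded RNA and amino acid shortage, and their common output is the integrated stress response. These are mainly steps of protein, so RNA levels report how much sensor a cell could make and not whether it is active.

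OVCAR5 is an established line labelled as ovarian cancer, and SpiD7 is a dimer of a spirocyclic α-methylene-γ-butyrolactone, a group that reacts with cysteines of proteins. The 6 libraries were 2 of vehicle (DMSO) cells, 2 of cells given 10 μM SpiD7 for 2 h, and single libraries after 6 h and 12 h. The labels give no duration for the vehicle and do not say whether libraries of a group came from separate cultures, so p-values measure only the spread between these libraries. The second DMSO and 2 h libraries, called recovered here, were calculated by subtracting the first library from a column that behaves as the mean of the group, and every statement on them rests on that reading.

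Depth relative to the first DMSO library was estimated from the commonest FPKM ratio among low rows, taken as 1 read in each library. It lay between 0.770, in the recovered 2 h library, and 1.11. The methods give only an approximate range of reads per sample, so the exact depth of each library is unknown. The recovered DMSO library was more than 2-fold above the first in 8.72% of genes and more than 2-fold below it in 4.77%. Of the epithelial markers, KRT18 lay at 1242 to 1742 FPKM, KRT7 at 209 to 491, KRT19 at 138 to 239 and CDH1 at 10.4 to 19.3 over the 6 libraries. Of 5 Müllerian or ovarian markers, WT1, MUC16 and ESR1 stayed at or under 0.686 FPKM, PAX8 lay at 1.64 to 2.12 and MSLN at 2.95 to 3.59, so most defining ovarian markers were at or near 0. CDX2, a gut epithelial factor, lay at 1.58 to 4.40 FPKM, and the other 3 gut markers stayed at or under 0.409. Of the 4 markers of other cells, PTPRC was at or near 0 throughout, but PECAM1 was at 0.736 and 10.7 FPKM in the first and recovered DMSO libraries, ACTA2 at 0.226 and 2.94 and COL1A1 at 0.596 and 2.18. The recovered library was also the higher one at 2 h, with PECAM1 at 0.961 and 7.74 FPKM, ACTA2 at 0.458 and 0.911 and COL1A1 at 0.756 and 1.98. The part of this difference in the results below was not tested.

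XBP1 is the member whose RNA is itself processed by a sensor, and the stretch that IRE1α removes is shown because the FPKM value cannot see it. In the coding exon of XBP1 on chr22:28796127-28796152 (GRCh38, minus strand, GENCODE 29), 26 bases lie between the 2 cuts, each within the letters CNGCAG. They are printed in capitals with 21 bases on each side.
XBP1 mRNA: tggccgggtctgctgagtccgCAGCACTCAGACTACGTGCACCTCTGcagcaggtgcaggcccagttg
The removed length is not a whole number of codons, so that removal shifts the reading frame. Of 7 annotated XBP1 transcripts, 4 held the stretch and 2 had its ends joined. The deposited XBP1 value sums over such forms, and the share of cut RNA was not measured here.

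Promoters of the sensors are shown for the members that stood out by level, as sequence context only. RefSeq promoters (GRCh38.p14) were found for 9 of 10 members, all but EIF2AK1, and 250 bases before the start were searched on both strands. The ER stress response element, CCAAT followed after 9 free bases by CCACG, thus holds a CCAAT box and is bound by ATF6 with NF-Y. It was in 1 of 2 XBP1 promoters, the one printed below, and in no other member's, and 0.074% of 35116 promoters held it. The other XBP1 promoter held neither the element nor a CCAAT box. The letters TGACGT, the core of a cAMP response element, were found in ATF6 alone among the members and in 7.1% of all promoters. CCAAT boxes were found in 5 members, XBP1, ERN1, ATF6B, EIF2AK2 and EIF2AK3, and in 32% of all promoters, with 4 of them in EIF2AK3. No member held ATTGG followed after 1 base by CCACG (0.0513% of promoters), TGACGTGG (0.612%, a longer form of TGACGT), TGATGNAA (3.14%) or GAAA followed after 2 bases by GAAA (3.02%). A match is a description of letters and not a bound site. The sequences run up to the first annotated base of the gene, in capitals the element of XBP1, the TGACGT of ATF6 and 3 CCAAT boxes (read as ATTGG on the other strand) of EIF2AK3.
XBP1, chr22:28800598-28800819, minus strand: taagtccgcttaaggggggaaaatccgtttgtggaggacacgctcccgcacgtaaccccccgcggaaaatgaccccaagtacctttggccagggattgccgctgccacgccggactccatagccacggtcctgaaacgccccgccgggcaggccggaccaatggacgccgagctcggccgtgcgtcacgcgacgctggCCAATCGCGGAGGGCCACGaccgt
ATF6, chr1:161766070-161766293, plus strand: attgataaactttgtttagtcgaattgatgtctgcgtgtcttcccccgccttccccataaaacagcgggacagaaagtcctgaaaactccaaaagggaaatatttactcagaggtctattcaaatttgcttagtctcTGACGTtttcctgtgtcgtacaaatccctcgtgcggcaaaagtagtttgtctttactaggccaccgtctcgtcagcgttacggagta
EIF2AK3, chr2:88627577-88627714, minus strand: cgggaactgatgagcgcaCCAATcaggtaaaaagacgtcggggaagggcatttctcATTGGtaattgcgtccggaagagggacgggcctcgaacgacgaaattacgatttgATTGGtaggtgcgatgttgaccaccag

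In vehicle cells the sensors spanned a wide range of RNA levels per length. EIF2AK1 was the most abundant, at 68.1 ± 3.34 FPKM (SD, n = 2), and ERN1 the least, at 2.91 ± 1.41. MBTPS1 (48.5 ± 11.4), XBP1 (35.1 ± 20.9) and ATF6B (25.6 ± 6.43) came next, and neighbours in that order had overlapping ranges, so their order is not settled. EIF2AK2 (13.6 ± 1.82), EIF2AK4 (13.2 ± 5.76), EIF2AK3 (10.4 ± 3.19) and MBTPS2 (8.88 ± 0.195) formed a middle group in which each overlapped the next. ATF6 followed at 8.16 ± 0.183, below MBTPS2 in both libraries. The pair ATF6 and ATF6B thus differed, with the paralog above ATF6 in every library by a ratio of 2.54 to 4.29.

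**Figure D1:**
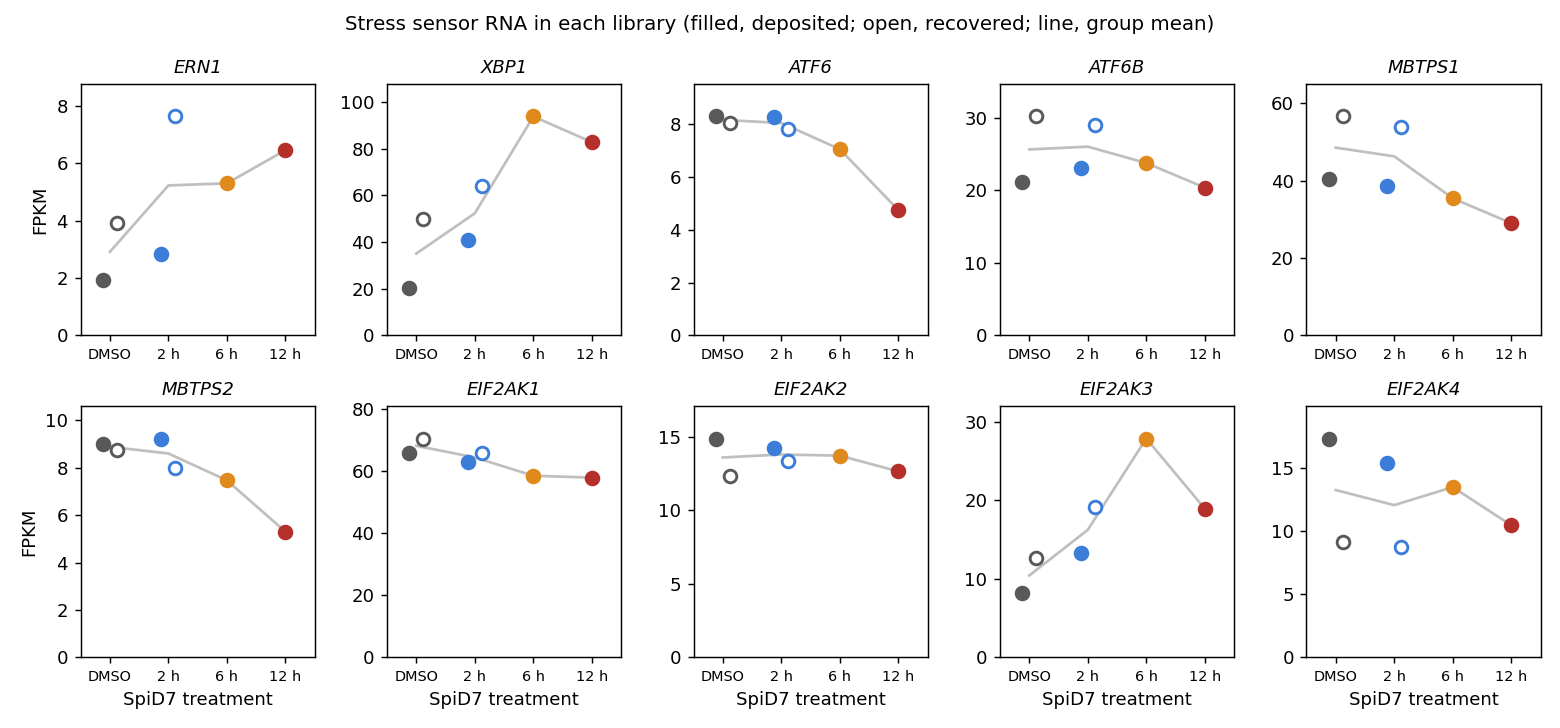
FPKM of each of the 10 genes (vertical axis, from 0) in the DMSO, 2 h, 6 h and 12 h libraries; filled points are deposited libraries, open points are recovered ones and the line joins group means. XBP1, ERN1 and EIF2AK3 lie above both DMSO points at 6 h and 12 h, while ATF6 and MBTPS2 lie at 4.74 and 5.30 FPKM at 12 h, below both.

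The first question is whether any sensor differed after 2 h of SpiD7, where both groups have 2 libraries. None of the 10 did by limma: 0 of 10 members had a Benjamini-Hochberg adjusted p under 0.05, where 0.0226% of all genes were called (3 genes, which also passed 2-fold), and 0 of 10 had an unadjusted p under 0.05, against 2.84% of all genes. With the replicate number as a block, the latter count was 2 of 10, ERN1 and EIF2AK3, against 14.1% of all genes. In both groups that number also separates the deposited library from the recovered one. By fold alone, 0 members were more than 2-fold higher (2.32% of all genes) and 0 more than 2-fold lower (0.662%). Every member's adjusted p from limma was 1. Only EIF2AK3 had both 2 h libraries above both DMSO libraries, an order found in 13.7% of all genes, and it lost that order under median-ratio scaling. No member lay below in the same way (8.1% of all genes), although ATF6 did under that scaling. An exact permutation test of 2 against 2 libraries cannot go below p = 0.333.

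The intervals at 2 h differ in what they leave possible. For ATF6 the log2 difference was -0.02 (SE 0.16, 95% interval -0.48 to 0.44), for EIF2AK1 -0.08 (-0.55 to 0.39), for EIF2AK2 0.03 (-0.53 to 0.58) and for MBTPS2 -0.05 (-0.56 to 0.46). These intervals stayed inside 2-fold. They exclude a 2-fold difference only if the libraries of a group are independent, which the labels do not say. For ATF6B (0.04, -0.78 to 0.85) and MBTPS1 (-0.07, -0.95 to 0.81) the interval also stayed inside 2-fold. For ERN1, XBP1, EIF2AK3 and EIF2AK4 it did not, so a difference of that size at 2 h was not excluded. These intervals are from the fit without the replicate block. There the SE of these genes was 0.67, 0.57, 0.34 and 0.49, and with the block it was 0.15, 0.22, 0.071 and 0.069.

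At 6 h and 12 h there is 1 library each and no replicate check, so the values below are descriptions against both DMSO libraries. At 6 h, XBP1 and EIF2AK3 were more than 2-fold above the DMSO mean, as were 5.66% of all genes, and 0 members were more than 2-fold below, against 3.1%. At 12 h, XBP1 and ERN1 were (6.48% of all genes), and again 0 were below (3.76%). Both counts turned on 1 control. Against the first DMSO library alone 3 members passed at each time, and against the recovered one alone EIF2AK3 passed at 6 h and none at 12 h. Of all 13287 genes, 834 after 6 h and 1091 after 12 h were more than 2-fold above the first DMSO library. Above the recovered one by as much were 1031 and 932. More than 2-fold above each DMSO library separately was EIF2AK3 at 6 h (3.21% of all genes) and 0 members at 12 h (3.88%), and 0 members were that far below each of them (0.61% of all genes after 6 h and 0.993% after 12 h).

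By position, 3 members were above both DMSO libraries at 6 h, ERN1, XBP1 and EIF2AK3, where 31.6% of all genes were, and the same 3 at 12 h (30.1%). Below both were ATF6, MBTPS1, MBTPS2 and EIF2AK1 at 6 h (29.2% of all genes) and these 4 with ATF6B at 12 h (35.6%). ATF6B lost its place under median-ratio scaling. These shares of the 10 members are not far from the background, so the counts are no result about the genes as a group.

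**Figure D2:**
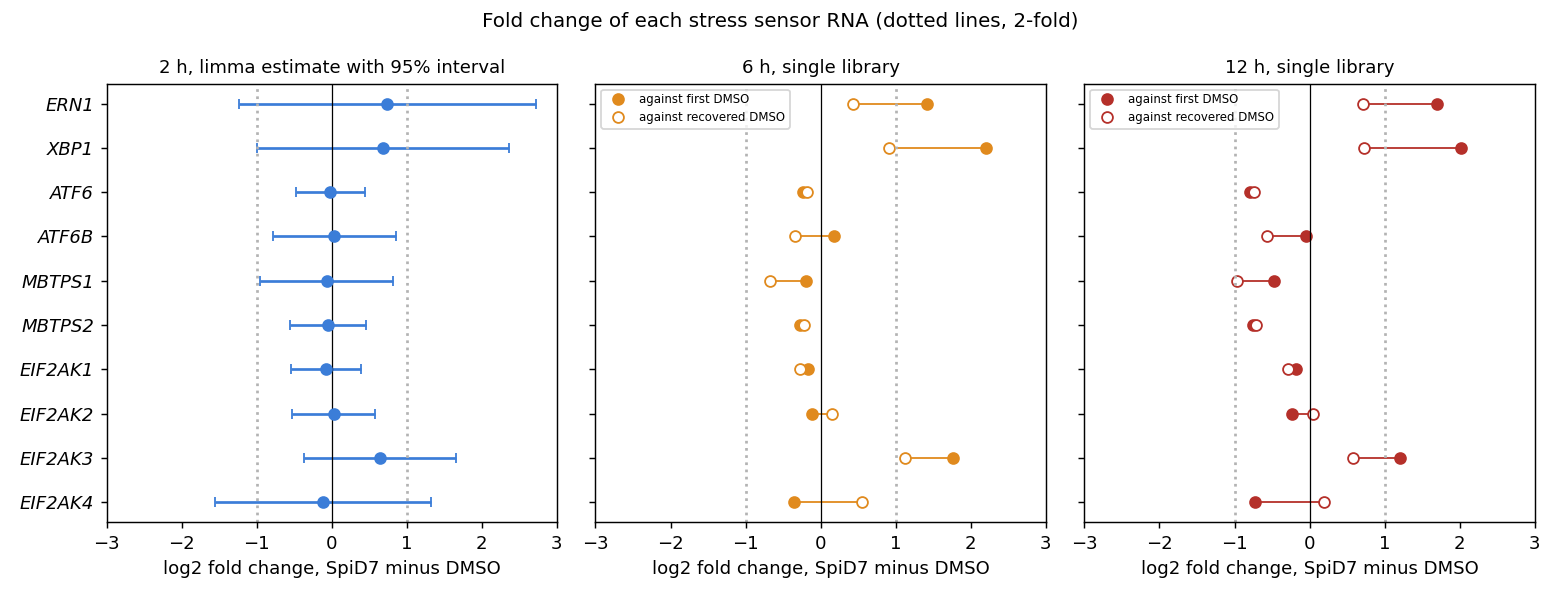
Log2 fold change of each gene (horizontal axis, SpiD7 minus DMSO); left, the limma estimate at 2 h with its 95% interval; middle and right, the single 6 h and 12 h libraries against the first DMSO library (filled) and the recovered one (open). All 2 h intervals cross 0, and at 6 h only EIF2AK3 is past the dotted 2-fold line against both controls (1.76 and 1.13).

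Of the IRE1 branch, ERN1 (chr17:64039142-64130819, minus strand), the gene of the kinase and endonuclease IRE1α, was at 1.91 FPKM in the first DMSO library and 3.91 in the recovered one, at 2.82 and 7.63 after 2 h, at 5.30 after 6 h and at 6.45 after 12 h. The 6 h and 12 h libraries were above both controls, but the groups at 2 h overlapped, with the recovered 2 h library the highest of all 6. The log2 difference was 0.74 at 2 h (SE 0.67, limma adjusted p = 1). It was 0.93 at 6 h, or 1.42 and 0.43 against the first and the recovered control, and 1.21 at 12 h, or 1.70 and 0.71. ERN1 was the 1 member whose group value was higher at each successive time, as in 8.78% of all genes. Its paralog ERN2, mainly known from mucosal epithelium, stayed at or under 0.565 FPKM in every library, so IRE1β RNA was near 0.

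XBP1 (chr22:28794555-28800597, minus strand) encodes the transcription factor that IRE1α activates. Its RNA was at 20.3 and 49.8 FPKM in DMSO, 40.7 and 64.0 after 2 h, 93.8 after 6 h and 82.8 after 12 h. The 6 h and 12 h values were the highest of the 6 libraries, while the first 2 h library lay between the 2 DMSO libraries. At 2 h the log2 difference was 0.68 (SE 0.57, limma adjusted p = 1). It was 1.56 at 6 h, a fold of 2.94, and 1.38 at 12 h, a fold of 2.60, and against the recovered DMSO library alone these were 0.91 and 0.73. The 2 DMSO libraries themselves differed by 1.29 on the log2 scale, which is most of the size of either difference.

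Of the ATF6 branch, ATF6 (chr1:161766294-161964070, plus strand), the sensor that is itself a membrane-bound transcription factor, was at 8.29 and 8.03 FPKM in DMSO, 8.28 and 7.80 after 2 h, 7.05 after 6 h and 4.74 after 12 h. The controls and the 2 h libraries lay close together and overlapped, the 6 h library was below all of them and the 12 h library was the lowest. At 12 h the log2 difference from the DMSO mean was -0.77, a fold of 0.587, with -0.79 and -0.75 against the first and recovered controls. MBTPS2 (chrX:21839636-21885424, plus strand), the intramembrane site-2 protease that makes the final cut in ATF6, was at 9.02 and 8.74 FPKM in DMSO, 9.23 and 7.97 after 2 h, 7.47 after 6 h and 5.30 after 12 h. The first 2 h library was above both controls. MBTPS2 too was lowest at 12 h, with a log2 difference of -0.73, a fold of 0.602, and the 6 h library was below all earlier ones. Over the 6 libraries the centred log2 values of ATF6 and MBTPS2 were 0.107 apart in Euclidean distance, the smallest among the pairs of members, and the next pair, EIF2AK1 with EIF2AK2, was 0.350 apart.

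MBTPS1 (chr16:84053761-84116906, minus strand), the site-1 protease that cuts ATF6 first, was at 40.5 and 56.6 FPKM in DMSO, 38.7 and 53.9 after 2 h, 35.5 after 6 h and 29.0 after 12 h. It was below both controls at 6 h and 12 h, but how far depended on the control, with -0.48 and -0.96 on the log2 scale at 12 h. ATF6B (chr6:32115264-32128253, minus strand), at 21.1 and 30.2 FPKM in DMSO, 23.0 and 29.0 after 2 h, 23.7 after 6 h and 20.4 after 12 h, lay inside the range of the controls or just under it. The group values of ATF6, MBTPS1, MBTPS2 and EIF2AK1 were lower at each successive time, as 10.7% of all genes were. EIF2AK1 lost that order under median-ratio scaling (-0.27 after 6 h and -0.20 after 12 h) and under upper-quartile scaling (-0.26 and -0.18), and EIF2AK2 gained it under median-ratio scaling. The step to 2 h is small, and its sign in ATF6, MBTPS1 and MBTPS2 turned when a library was left out. A lower value in a pool of cells cannot tell less RNA per cell from fewer cells that hold it.

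A limma fit over all 6 libraries, which assumes that the lone 6 h and 12 h libraries vary like the other groups, gave no member an adjusted p under 0.05. All genes called by it were 0.294% at 6 h and 0.339% at 12 h. An unadjusted p under 0.05 was found for 1 member after 6 h, EIF2AK3 (limma adjusted p = 0.811), where 5.55% of all genes had one. After 12 h it was found for 2 members, ATF6 (limma adjusted p = 0.484) and MBTPS2 (limma adjusted p = 0.505), where 9.19% of all genes had one.

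Among the kinases, EIF2AK3 (chr2:88556741-88627576, minus strand) encodes PERK, the ER member of the family. It was at 8.17 and 12.7 FPKM in DMSO, 13.3 and 19.1 after 2 h, 27.8 after 6 h and 18.9 after 12 h. All 4 SpiD7 libraries were above both controls and the 6 h library was the highest, although the first 2 h library was above the recovered DMSO library by little and no longer so under median-ratio scaling. The log2 difference was 0.65 at 2 h (SE 0.34, 95% interval -0.37 to 1.66, limma adjusted p = 1), 1.44 at 6 h and 0.89 at 12 h. With the recovered control as the only reference, the difference was 1.13 after 6 h and 0.57 after 12 h.

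The other kinases lay within 2-fold of each control at 6 h and 12 h. EIF2AK1 (chr7:6022244-6059230, minus strand), the heme-regulated kinase HRI, was at 65.8 and 70.5 FPKM in DMSO, 63.0 and 65.8 after 2 h, 58.5 after 6 h and 57.9 after 12 h. The last 2 were below both controls, with log2 differences from -0.17 to -0.28. EIF2AK2 (chr2:37099210-37157065, minus strand), the double-stranded RNA kinase PKR, was at 14.9 and 12.3 FPKM in DMSO, 14.3 and 13.3 after 2 h, 13.7 after 6 h and 12.6 after 12 h, so that every SpiD7 library lay between the controls. EIF2AK4 (chr15:39934146-40035591, plus strand), the amino acid sensor GCN2, was at 17.3 and 9.15 FPKM in DMSO, 15.4 and 8.70 after 2 h, 13.5 after 6 h and 10.4 after 12 h. Its first libraries were high and its recovered ones low in both groups, and the 6 h and 12 h libraries lay between the controls.

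Shares within a deposited library do not depend on how libraries were scaled, while those of the recovered libraries also rest on the share used in the subtraction. EIF2AK3 made up 7.69% and 12.1% of the summed FPKM of the 4 kinases in DMSO, 12.6% and 17.9% after 2 h, 24.5% after 6 h and 18.9% after 12 h, above both controls in all 4 SpiD7 libraries. EIF2AK1 held 62.0% and 67.4% in DMSO and 51.5% at 6 h, and stayed the most abundant kinase throughout. The sum itself lay between 99.9 and 113.5 FPKM. The ratio of XBP1 to ATF6 was 2.45 and 6.21 in DMSO, 4.91 and 8.21 after 2 h, 13.3 after 6 h and 17.5 after 12 h, with the groups overlapping at 2 h. EIF2AK3 to ATF6 was 0.986 and 1.58 in DMSO, 1.61 and 2.45 after 2 h, 3.95 after 6 h and 3.99 after 12 h. Between the 6 h and 12 h libraries ATF6 went from 7.05 to 4.74 FPKM, XBP1 from 93.8 to 82.8 and EIF2AK3 from 27.8 to 18.9. Neither ratio was lower at 12 h because ATF6, the denominator, was lower, not because XBP1 or EIF2AK3 was higher. These shares and ratios were not tested and are descriptions.

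**Figure D3:**
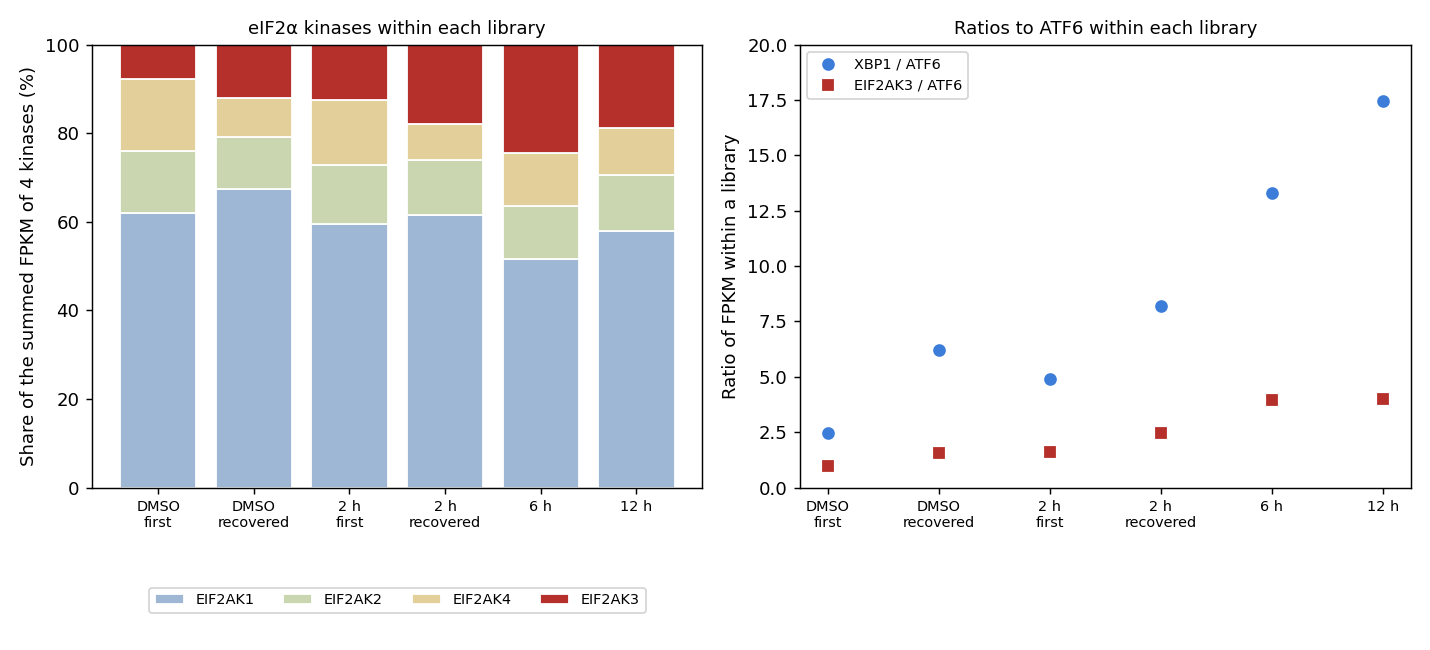
Left, share of the summed FPKM of the 4 eIF2α kinases (percent, from 0) in each library, with EIF2AK3 at the top of each bar; right, ratio of XBP1 and of EIF2AK3 to ATF6 within each library. The EIF2AK3 share is 7.69% and 12.1% in DMSO and 24.5% at 6 h. The XBP1 to ATF6 ratio reaches 17.5 at 12 h, where XBP1 and ATF6 are both lower than at 6 h.

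Some members share exonic bases with a neighbour in GENCODE 29, and the sources used here do not say that strand was used in counting. For EIF2AK3, 14.4% of exonic bases are also those of the antisense gene AC104134.1, and for EIF2AK1, 9.59% are those of AIMP2 on the opposite strand. YY2, on the same strand, covers 12.2% of the exonic bases of MBTPS2, and AL662884.2 covers 7.96% of those of ATF6B. Reads from these bases may belong to the partner, and how far this moves the values of these 4 genes was not tested.

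The genes whose 6 values were most like a member's, by the distance of centred log2 values over 13287 genes, were named 3 to a member. Closest to EIF2AK3 were NAB2 (distance 0.127), FICD (0.231) and MTURN (0.273), and FICD encodes the enzyme that puts AMP on BiP. FICD was at 1.02 and 2.06 FPKM in DMSO, 1.94 and 2.83 after 2 h, 4.17 after 6 h and 2.90 after 12 h, with the first 2 h library between the controls. Closest to XBP1 were FOXA3 (0.233), a liver and gut transcription factor, PELI2 (0.334) and HIST1H2BJ (0.338), and closest to ERN1 were ZSWIM4 (0.375), CPEB4 (0.386) and CYLD (0.395). CPEB4, an RNA-binding regulator of translation, was at 2.06 and 4.13 FPKM in DMSO, 3.19 and 7.45 after 2 h, 6.94 after 6 h and 8.51 after 12 h. The genes nearest to ATF6 were PRELID2 (0.0854), PLS1 (0.0879) and PIGN (0.0901), and those nearest to MBTPS2 were LANCL1 (0.0736), DOCK1 and NPHP4. MBTPS1 was closest to RPH3AL, PFKL and C14orf159, ATF6B to SCARB2, ITSN2 and MPP7, EIF2AK2 to PPHLN1, SLC25A32 and HNRNPM, and EIF2AK4 to C1orf109, PRIM2 and SMPD4. For EIF2AK1 they were CYB5R3 and the pair ST6GAL1 and LOC102723861, whose values were equal in all 6 libraries and may be the same reads. The median distance over all genes was 0.663 to 1.97, depending on the member.

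The genes that act with or after the sensors were described by lists of textbook members, with the sensors themselves left out. Some genes, such as HERPUD1, HSPA5, DNAJB9 and PPP1R15A, stand in more than 1 list. No gene of any list had an adjusted p under 0.05 at 2 h by limma. Over all genes tested the median log2 difference was -0.0082 after 2 h, 0.033 after 6 h and -0.051 after 12 h, against which the medians of the lists are read. More than 2-fold higher at 12 h were 6.48% of all genes and more than 2-fold lower 3.76%, and the counts past 2-fold are read against these.

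Targets of ATF6, mostly ER chaperones, had a median of -0.048 after 2 h, 0.32 after 6 h and 0.71 after 12 h, and 8 of 11 were above both controls at 12 h (30.1% of all genes) and 0 below (35.6%). Against the first and the recovered DMSO library the median was 0.45 and 0.13 at 6 h and 0.97 and 0.45 at 12 h. HSPA5, the BiP gene, was at 197 and 337 FPKM in DMSO, 229 and 354 after 2 h, 638 after 6 h and 1378 after 12 h. Its 2 h libraries overlapped the controls and the later ones were above them, by 2.42 on the log2 scale at 12 h. HERPUD1, a partner of the ER degradation machinery, was at 14.3 and 33.2 FPKM in DMSO, 50.7 and 79.7 after 2 h, 248 after 6 h and 350 after 12 h, with every SpiD7 library above both controls (limma adjusted p = 1 at 2 h). The 2 others past 2-fold at 12 h, named after their values were seen, were the chaperone HSP90B1 (1.39) and SDF2L1 (1.10). HYOU1 (0.18) and SEL1L (0.08) were the lowest of the list.

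Targets of XBP1, mainly of ER folding, transport and degradation, had a median of -0.084, 0.23 and 0.38 at the 3 times, and 2 of 16 were more than 2-fold higher at 12 h (6.48% of all genes), with 0 lower (3.76%). These were HERPUD1 and DNAJB9, a cochaperone that returns IRE1α to BiP, at 3.17 and 8.66 FPKM in DMSO, 12.0 and 21.1 after 2 h, 28.04 after 6 h and 28.7 after 12 h. DNAJB9 was above both controls in every SpiD7 library (limma adjusted p = 1 at 2 h). EDEM1, which passes misfolded glycoproteins to degradation, was the lowest at 12 h, at -0.47, and SSR1 followed at -0.16. The wider list of 11 tested partners of IRE1α had medians of -0.070, 0.10 and 0.094. DNAJB9 was its 1 gene past 2-fold at 12 h, PDIA6, a disulphide isomerase that acts on IRE1α, was at 0.40, and the downstream kinase MAP3K5 and the adaptor DAB2IP were at -0.65 and -0.41.

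Other substrates of the site-1 and site-2 proteases had a median of -0.12 after 2 h, -0.43 after 6 h and -0.53 after 12 h, and 0 of 7 were past 2-fold in either direction. Against the first and the recovered control the median was 0.0019 and -0.76 at 6 h and -0.27 and -0.73 at 12 h, so that the 6 h value rests on the recovered control. SREBF1, a master factor of lipid synthesis, was at 21.0 and 29.0 FPKM in DMSO, 21.1 and 23.2 after 2 h, 17.0 after 6 h and 15.6 after 12 h, below both controls at the later times. CREB3L4 was the lowest at 12 h (-0.84), CREB3 the highest (0.47) and SREBF2, of cholesterol synthesis, next (-0.11). Partners of ATF6 had medians of -0.0046, -0.080 and -0.14, with the transcription factors YY1 (0.26) and NFYC (0.16) highest and GTF2I (-0.90) and THBS1 (-0.93) lowest at 12 h.

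Downstream of the kinases, the targets of the integrated stress response had a median of 0.44 after 2 h, 1.14 after 6 h and 1.04 after 12 h, and 8 of 16 passed 2-fold upwards at 12 h (6.48% of all genes) and 0 downwards (3.76%). Against the first DMSO library alone 10 did and against the recovered one 9, where 2 were also more than 2-fold lower. Of all 13287 genes, 1091 were that far above the first DMSO library, 932 above the recovered one and 1005 below the recovered one. ATF3, an early stress factor named after its values were seen, was counted as higher but lay at 1.06 and 99.4 FPKM in DMSO and at 31.9 after 12 h, so that its log2 difference was 4.78 against the first control and -1.64 against the recovered one. At 2 h, 3 of the 16 had an unadjusted p under 0.05 (2.84% of all genes). SESN2, a brake on mTORC1, was at 1.89 and 2.94 FPKM in DMSO, 8.77 and 9.40 after 2 h, 27.3 after 6 h and 38.6 after 12 h (limma adjusted p = 1 at 2 h). CHAC1, which degrades glutathione, was at 0.738 and 2.08 in DMSO, 15.5 and 14.2 after 2 h, 31.2 after 6 h and 12.4 after 12 h (limma adjusted p = 1 at 2 h). DDIT3, the CHOP gene, named after its values were seen, was at 13.9 and 46.3 in DMSO and 99.1 and 188 at 2 h (limma adjusted p = 1). In all 3 every SpiD7 library was above both controls. ATF5 (-0.12) and NUPR1 (-0.54) were lowest at 12 h.

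For eIF2, its exchange factor eIF2B and its phosphatases, the values at 12 h lay inside 2-fold for all genes but PPP1R15A. The eIF2 and eIF2B list had medians of -0.039, 0.20 and -0.094 with 0 of 10 past 2-fold at 12 h, and its ends were EIF2A (0.33) and EIF2S2 (0.31) against EIF2B3 (-0.48) and EIF2B5 (-0.61). Of 5 phosphatase genes, PPP1R15A, the inducible subunit GADD34 that brings the phosphatase to eIF2α, was at 35.7 and 139 FPKM in DMSO, 236 and 320 after 2 h, 458 after 6 h and 471 after 12 h. It was above both controls in every SpiD7 library (limma adjusted p = 1 at 2 h), while the catalytic subunits PPP1CC, PPP1CA and PPP1CB were at 0.011, -0.23 and -0.45 on the log2 scale at 12 h. Regulators of the kinases had medians of 0.029, 0.025 and -0.097, with 3 of 12 more than 2-fold higher at 12 h (6.48% of all genes), HSPA5, HSPA8 (1.32) and, named after its values were seen, HSP90AA1 (1.24). HSP90AA1 was at 0.68 against the first control and 1.79 against the recovered one, so it passed 2-fold only through the latter. The 12 h medians of the kinase regulators (-0.17 and 0.044) and of the eIF2 and eIF2B list (-0.28 and 0.094) differed in sign between the first and the recovered control. The lowest of the regulators were IMPACT (-0.76), an inhibitor of GCN2 activation, and OMA1 (-0.98), the mitochondrial protease that signals to HRI.

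EIF2AK2 is itself induced by interferon, so other interferon-stimulated genes were set beside it. Their median was -0.22 after 2 h, -0.83 after 6 h and -0.64 after 12 h, and its size rests on the recovered control. With the first control as reference it was -0.31 after 6 h and -0.026 after 12 h, and with the recovered one -1.30 and -1.01. Below both controls were 10 of 12 genes at 6 h (29.2% of all genes) and 7 at 12 h (35.6%), and above both were 0 at 6 h (31.6%) and 1 at 12 h (30.1%). Past 2-fold under the DMSO mean lay 5 genes after 6 h (3.1% of all genes) and 1 after 12 h (3.76%). These counts too depended on the control. Under the first control alone, 0 genes lay that far after 6 h and 1 after 12 h, against 132 and 536 of all 13287 genes. Under the recovered control alone, 8 and 6 did, against 1032 and 1005 of all genes. OAS3, a sensor of double-stranded RNA, was at 4.16 and 13.1 FPKM in DMSO, 3.23 and 11.7 after 2 h, 2.16 after 6 h and 1.52 after 12 h, below both controls in the later libraries. OAS1 (-0.96) was next lowest at 12 h, and IRF7 (0.76) and IFIT2 (-0.14) were the highest of the list.

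**Figure D4:**
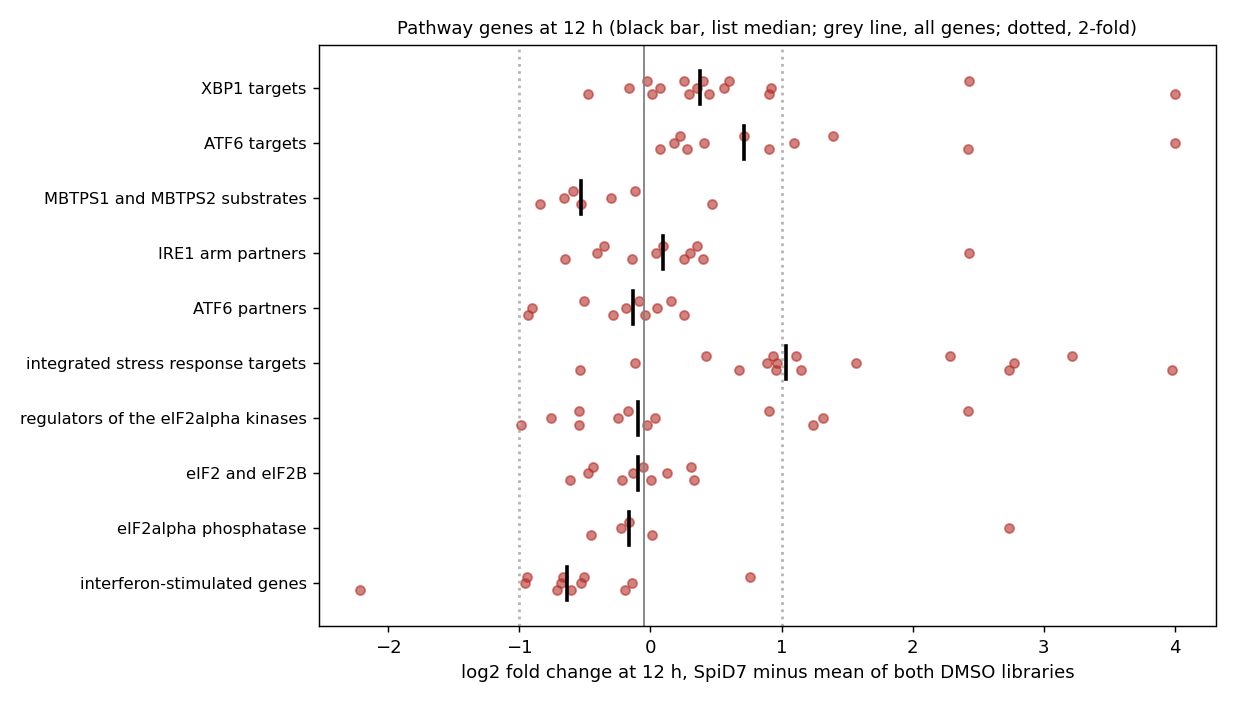
Log2 fold change after 12 h relative to the DMSO mean (horizontal axis) for each tested gene of 10 lists; black bars are list medians and the grey line is the median of all genes. Targets of ATF6 and of the integrated stress response have medians of 0.71 and 1.04, and substrates of the site proteases one of -0.53.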

How the data were processed

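RNA of 6 OVCAR5 libraries was sequenced as single reads from TruSeq V2 libraries. By the submitters' processing notes and the methods, the authors trimmed reads with Trim Galore, aligned them with TopHat2 2.0.8 and estimated and compared expression with Cufflinks and Cuffdiff 2.1.1. The notes name both GRCm38 and hg38, and the loci in the table fit the human build. For 4 comparisons, each scaled on its own, the deposited table gives the FPKM of each side, with log2 fold changes, p-values and q-values of their comparisons, which were not used. No counts are in the table, so the exact depth of each library and the counting error are unknown. All value columns were mapped (0 left out).

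The columns named for replicate 2 were read as group means. Of 18195 rows with a value in the first DMSO library, 0 were empty there. The lowest ratios of these columns to the first library gathered near a share of 0.526 (DMSO) or 0.509 (2 h). Within 0.2% of that share lay 811 and 966 rows, and rows below it were not counted. That share of the first library was subtracted and the rest divided by it, assuming equal weights. Remainders smaller than 0.2% of the mean, also any below 0, were set to 0. The 6 h and 12 h libraries were divided by 0.972 and 0.994, the ratio of the shared DMSO library. Whether reads were instead merged before counting, which would change the recovered values, was not tested.

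Rows of a symbol were summed (33085 rows). Genes with a mean of at least 1 FPKM were tested as log2(FPKM + 0.1), which understates changes of low genes, by limma 3.58.1 in R 4.3.3 (2 against 2 at 2 h, Benjamini-Hochberg over all genes). Python 3.11.15 and pandas 2.3.3 were used for the tables. The limma script was run on simulated data, with recovery of changed genes required only at a spread smaller than that of these libraries. Named genes are all members, the 2 highest and 2 lowest of each list at 12 h, ERN2, and 3 nearest genes a member. The markers WT1, MUC16, ESR1, PTPRC and ACTA2, below the minimum, were named after their values were seen. Alternatives were other pseudocounts, filters, scalings and row rules, a replicate block, an intensity trend, 1 fit over 6 libraries and leaving out each library. The members and lists were chosen with earlier results of these data known.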

Additional observations from a re-analysis of the deposited data

How the results depend on the processing

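At 2 h, 0 of 10 members were called by limma under every alternative run. Without the filter the count of all genes past 2-fold was 2948 at 6 h and 3395 at 12 h, with a mean of at least 5 FPKM it was 572 and 682, with pseudocount 1 it was 771 and 869, and leaving out a DMSO library gave 966 to 2063 and 1627 to 1937 (1164 and 1360 as reported). In 1 limma fit over 6 libraries the folds are the same, and with an adjusted p under 0.05 required as well, 39 and 45 genes passed. Genes called at 2 h numbered 3 as reported, 1 with pseudocount 1, median-ratio or upper-quartile scaling, 6 with pseudocount 0.01, 5 with an intensity trend and 0 to 21 when a library was left out. Members past 2-fold at 6 h were 2 as reported, and 1 to 3 when a DMSO library was left out. At 12 h they were 2 as reported, 1 with pseudocount 1 or a mean of at least 5 FPKM (ERN1 is then not tested), and 0 to 3 when a DMSO library was left out. In the fit over 6 libraries, 0 members at 6 h and 0 at 12 h passed 2-fold with an adjusted p under 0.05.

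Signs of small 2 h differences turned. As deposited means ATF6B was at -0.025 and EIF2AK2 at -0.025, and EIF2AK2 was at -0.0028 under median-ratio scaling. When a library was left out, ATF6 ranged from -0.064 to 0.022, ATF6B from -0.22 to 0.29, MBTPS1 from -0.31 to 0.17, MBTPS2 from -0.15 to 0.055, EIF2AK2 from -0.11 to 0.16 and EIF2AK4 from -0.58 to 0.33. ERN1, XBP1 and EIF2AK3 stayed above 0, at no less than 0.041, 0.034 and 0.33. The cause was not tested.

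Same-numbered DMSO and 2 h libraries deviated together (correlation 0.369 over genes), but the labels do not say what a number shares. In both groups the first library is deposited and the second recovered by subtraction. A pairing therefore cannot be told apart from an effect of that step, and the results with the block carry this limit. With the replicate number as a block, limma called 0 genes, and the adjusted p was 0.329 for EIF2AK3, 0.333 for ERN1 and 0.371 for XBP1 against 1 without it. The block moved the members with an unadjusted p under 0.05 from 0 to 2, and by adjusted p it changed the call of no member.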
